A study of Drosophila melanogaster with 6 samples.

Results

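The Cpr genes of Drosophila melanogaster encode cuticle proteins with the Rebers and Riddiford consensus, a stretch that binds chitin. They were chosen as every row of the authors' 2 deposited tables whose RefSeq symbol begins with Cpr and a digit, the digit being the polytene map position of the gene. This gave 70 genes on 93 transcripts, of 16948 genes in the tables, and 53 of the 70 had a single transcript. The transcript with the highest base mean stands for each gene. Base mean is the authors' mean over libraries of read counts divided by a size factor per library, and it is called a normalized count here. A base mean of 0 was listed for 11 of the 70 genes, 32 lay above 0 and under 10, and 27 reached at least 10 and are described one by one. These levels went with the number of transcripts listed. All 27 were among the 53 genes with 1 transcript, while none of the 17 genes with several reached 10, the highest being Cpr49Ac at 3.55 in the authors' deposited table, and 9 of the 17 were at 0. Over all genes, 44.0% of those with 1 transcript and 32.2% of those with several reached 10. How a read that fits several transcripts of a gene was counted is not given in the sources used here, so a low or 0 value of a gene with several transcripts is not read as low expression.

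Insect cuticle is a layered exoskeleton of chitin fibres held in a matrix of proteins, and it is replaced at each moult. Cells of the epidermis, the tracheae, the foregut and hindgut and the imaginal discs secrete Cpr proteins at their apical side, in bursts timed by the moulting hormone ecdysone. The forms called RR-1 and RR-2 of the consensus are associated with softer and harder cuticle. Neurons and glia are not known as cells that lay down cuticle, while tracheal branches run over and into the larval nervous system.

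The question of the study was which genes dSET2 regulates in the larval nervous system. The knockdown samples, 3 in number, had the genotype dSET2 RNAi/+; elavC155GAL4, in which the neuronal elav driver expresses an RNAi transgene against dSET2. The controls, also 3, were dSET2 RNAi/+; Canton S, and so carried the same transgene with no driver. Both groups were larval central nervous systems of third-instar larvae at 84 h AEL, grown at 25 °C, with 15 of them pooled per sample. The driver is known for its activity in neurons, and the labels give no cell type that was sorted or removed. The gene behind dSET2 is Set2, whose product methylates lysine 36 of histone H3.

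The tables hold no value for any labelled sample. The base means and the average log2 CPM were together resolved into whole reads in 4 libraries, named A, B, C and D by the size of 1 read, with size factors of 1.48, 1.11, 0.902 and 0.701. For 14532 of the 14550 transcripts whose base mean was over 0 and not over 2700, a single set of whole reads fitted both tables, and all 59 Cpr genes above 0 were among them. Every transcript read once in A, C or D had a positive log2 fold change, and all 489 read once in B had a negative one. The authors' comparison was therefore A, C and D over B: a positive value is higher in A, C and D, and a negative one higher in B, which is alone on its side. The tables do not say which side is the knockdown, and the 4 libraries stand against 6 labelled samples. No difference below can be tied to dSET2. Set2 itself had 10 reads in A, 21 in C and 0 in D, against 36 in B. The authors' deposited edgeR table gave it a log2 fold change of -1.65 with an adjusted p of 1. It has 2 transcripts in the tables, and the other is listed at 0.

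Markers of another larval tissue set library B apart. Of 11 salivary gland genes, 9 could be resolved. They summed to 41.2 normalized counts in A, 53.2 in C and 58.5 in D, against 15640 in B. Most of the value in B came from ng1 at 7000 and ng2 at 7289. B was the highest library in 7 of the 8 resolved ones at a base mean of 10 or more. The exception, Sgs1, had 10.8 in A, 18.8 in C and 5.70 in D, against 7.21 in B. Sgs8 was read in all libraries, with 14.9 in A, 21.1 in C and 21.4 in D, against 68.5 in B. The unresolved genes in this and the following lists had base means over 2700, and for salivary gland they were ng3 at 32295 and Pig1 at 4495 in the authors' deposited table. In the authors' deposited edgeR table, 8 of the 10 salivary gland genes at a base mean of 10 or more were negative at an adjusted p under 0.05. The glue gene Sgs4 had no read in A, C or D and 537 reads in B. Sgs4, Sgs5, Sgs7, Eig71Ee, ng1 and ng2 reached a base mean of 10 only through B, which favours negative calls among the 10. The 10 resolved muscle genes of 12 summed to 237, 241 and 328 normalized counts in A, C and D and to 339 in B, and none of the 6 at a base mean of 10 or more was called in the authors' deposited edgeR or DESeq2 table, with 1 at an unadjusted p under 0.05 in each. Most of each muscle sum was Tm1, with 181 in A, 210 in C and 252 in D, against 205 in B, so the sums say little about the other muscle genes. Of the 4 resolved ones at a base mean of 10 or more, B was the highest library in 2, Mhc and sls. Mhc had 6.75 in A, 2.22 in C and 14.3 in D, against 36.9 in B. The unresolved muscle genes, Act57B and Mlc2, had log2 fold changes of -2.21 and -2.33 in the authors' deposited edgeR table. Neuronal markers, 12 in number with Syn at 0, summed to 4981 in A, 6979 in C and 8927 in D, against 4432 in B. Most of each neuronal sum was elav and para, so the sums say little about the other neuronal markers. All 12 are genes with several transcripts. The part of these markers in the Cpr values was not tested. In pooled tissue, fewer cells of a type and less RNA per cell cannot be told apart.

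Summed over the 70 genes, Cpr transcripts held 5505 normalized counts in A, 1135 in C and 9124 in D, against 10510 in B. The mean over A, C and D was 5255 ± 4000 (SD, 3 libraries), or 0.50 of the value in B. Library D was close to B and library C lay far below both, so A, C and D did not form a tight group on their side of the comparison. Without Cpr47Eg, the gene with the highest level, the sums were 3219 in A, 1109 in C and 6377 in D, against 7825 in B. The order of the 4 libraries did not change. Leaving out library D set the ratio of A and C to B at 0.316. All Cpr genes together made up 0.0682% of the summed base means of all transcripts. The top 4 genes held 62.8% of that amount and the top 9 held 86.5%.

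**Figure D1:**
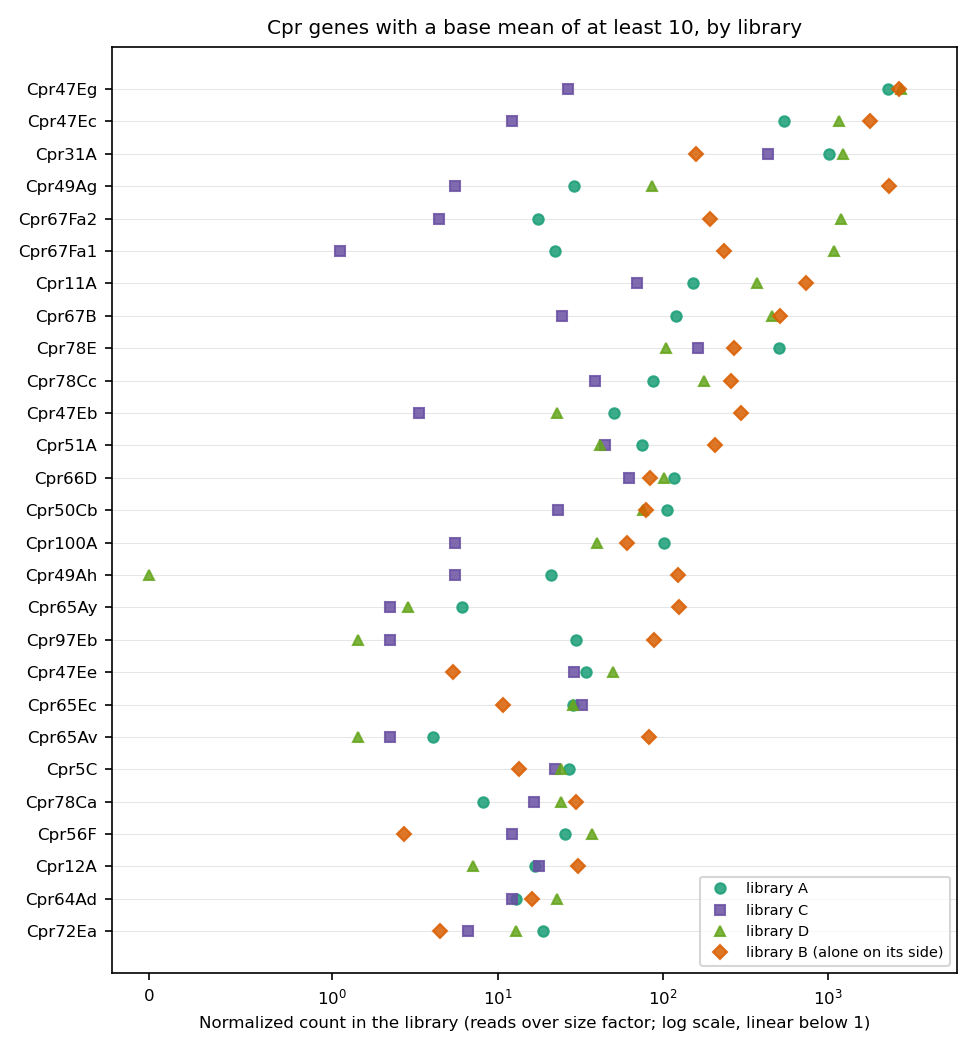
Normalized count of each of the 27 Cpr genes at a base mean of 10 or more in libraries A, C and D and in library B, on an axis that is logarithmic, and linear below 1; 1 point is 1 gene in 1 library. Library C holds the lowest point in 14 genes and library B the highest in 13.

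The 27 genes did not share one pattern over the libraries. Library B was above A, C and D in 13 of them (48.1%), a position that 24.6% of all 5783 resolved genes at the same base mean held. Library B was below all others in 6 of them (22.2%, against 25.8% of all genes), and inside the range of A, C and D in 8. Library C was the lowest of the 4 in 14 of the 27 genes (51.9%), against 27.2% of all genes. Within A, C and D alone, the highest library exceeded the lowest by over 10 times in 10 of the 27 genes (37.0%), and in 3.60% of all resolved genes. The median of that ratio was 3.78 for the Cpr genes and 1.77 for all genes. The Cpr median leaves out Cpr49Ah, with no read in D, which lowers it, while the median of all genes keeps such cases. These libraries stood on the same side of the authors' comparison. Cpr genes share clusters and cells of origin, so the 27 are not 27 independent measurements.

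In the authors' deposited edgeR table, with an adjusted p under 0.05 as the threshold, 7 of the 27 genes were negative, that is higher in B (25.9%, against 3.2% of the 6592 genes at a base mean of 10 or more). In the same authors' deposited table, 1 of the 27 was positive (3.7%, against 0.394%). Among the 4226 genes with 1 transcript, as all 27 are, the shares were 4.71% negative and 0.592% positive. Cpr49Ah, Cpr65Ay and Cpr65Av, which are 3 of the 7, reached a base mean of 10 only through B, and Cpr47Ee, Cpr56F and Cpr72Ea only through A, C and D. Of the 21 genes with at least 10 normalized counts both in B and in the mean of A, C and D, 4 were negative in the authors' deposited edgeR table (background 1.74%) and 1 positive (background 0.192%). Of all 27, 4 were negative in the authors' deposited DESeq2 table (background 2.62%) and 1 was positive (background 0.319%), and all 5 were also called by edgeR. Cpr65Ay and Cpr65Av are among these 4 but not among the 21 genes. At an unadjusted p under 0.05 stood 12 of the 27 in the authors' deposited edgeR table and 10 in their DESeq2 table. The share of all genes at such an unadjusted p was not worked out. These unadjusted counts, here and for the other lists, are thus not read as a result. The median log2 fold change of the 27 was -0.70 in the authors' deposited edgeR table and -0.18 in their DESeq2 table, beside 0.01 and 0.02 over all genes at that base mean. Of the 27 values, 9 were positive and 18 negative, and they ran between -5.93 and 3.12 in the authors' deposited edgeR table. With a single library on one side, an edgeR p-value here sets B against a spread that only A, C and D can give. The degrees of freedom behind that spread could be worked out from the deposited F and p for 20 of the 27 genes. They were under 10 in 4 of these, at 2 in Cpr47Eg, Cpr47Ec, Cpr67Fa1 and Cpr67Fa2, but 8580 in Cpr11A and 68200 in Cpr51A. For most of the 20, the spread was thus largely one shared over transcripts, not the gene's own. Of the called genes, only Cpr11A is among the 20. The degrees of freedom were not worked out for Cpr31A, Cpr49Ag, Cpr47Eb, Cpr49Ah, Cpr65Ay, Cpr97Eb and Cpr65Av, so this is not known for them.

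**Figure D2:**
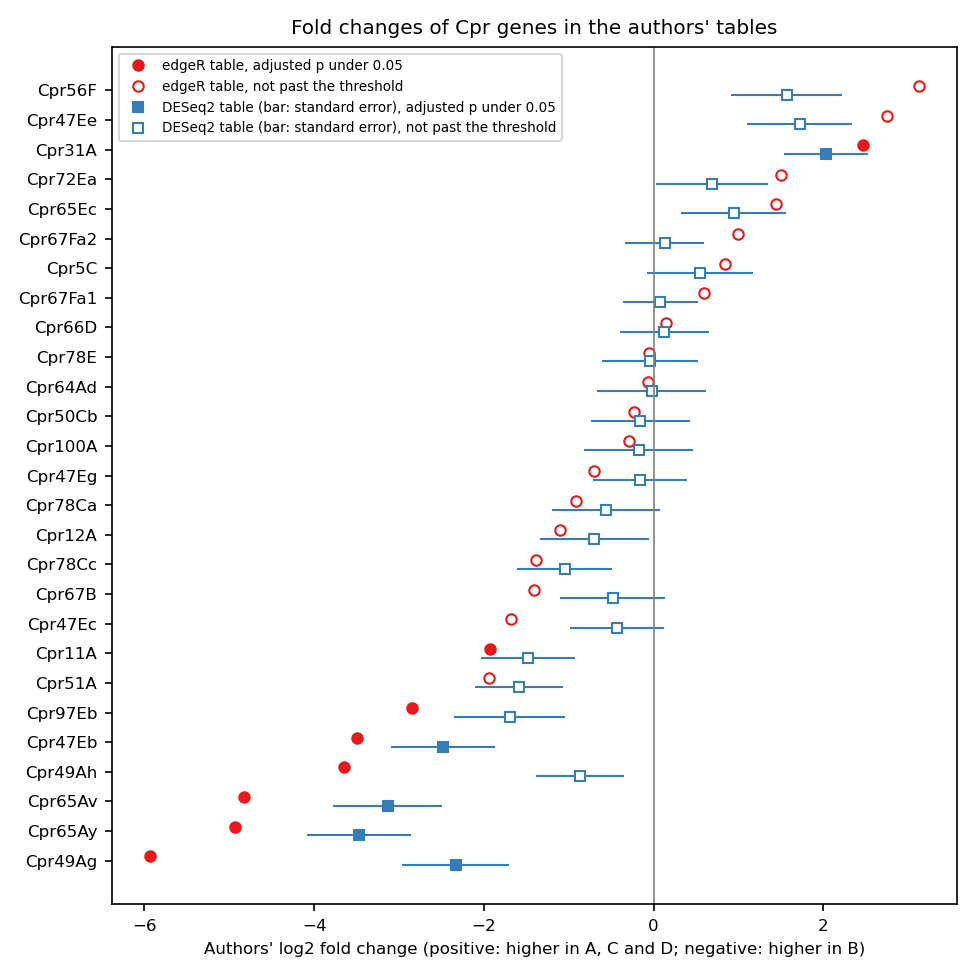
Log2 fold change of the 27 Cpr genes, A, C and D over B, in the authors' deposited edgeR table and in their DESeq2 table (bars are the DESeq2 standard error). Filled marks are calls at an adjusted p under 0.05: Cpr31A on the positive side, and 7 genes on the negative side in the edgeR table.

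Map position 47E on chromosome arm 2R holds 7 Cpr genes, of which 4 reached a base mean of 10, and it gave the highest levels of the family. Cpr47Eg had 2286 normalized counts in A, 26.6 in C and 2747 in D, against 2685 in B. A, D and B were of a like level, and library C stood 103 times below D, on 24 reads against 1927. With a wider tolerance in resolving the reads, Cpr47Eg had no single fitting set. The authors' deposited edgeR table gave a log2 fold change of -0.70 with an adjusted p of 1. Per kb of exon, its base mean in the authors' deposited table was 4599 normalized counts, the highest of the 27. Cpr47Ec, the next in level, had 541 in A, 12.2 in C and 1155 in D, against 1777 in B. Library C was again the low one, and the authors' deposited edgeR value was -1.68 with an adjusted p of 1. Over the 7 genes, C held 0.615% of the normalized counts.

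In Cpr47Eb, library B was well above every other library. The gene had 50.6 normalized counts in A, 3.33 in C and 22.8 in D, against 295 in B. The authors' deposited edgeR table gave -3.50 with an adjusted p of 4.58e-06, and their DESeq2 table gave -2.49 ± 0.613 (SE) with an adjusted p of 0.00302. Without A, the log2 ratio of the mean of C and D to B was -4.49, in place of -3.52 with A. In Cpr47Ee the placing was the reverse, with 34.4 in A, 28.8 in C and 49.9 in D, against 5.41 in B. A, C and D were within 1.73 times of each other and all above B, which rests on 6 reads and has an exact 95% Poisson interval of 1.98 to 11.8 normalized counts. Such intervals cover counting error only, and PCR copies of a read are not independent molecules. The authors' deposited edgeR value of 2.75 had an adjusted p of 0.348. Of the other 3 genes at this position, Cpr47Ef was at 0, and Cpr47Ea and Cpr47Ed had 1 read each. No annotated gene lies between Cpr47Ec, Cpr47Ed and Cpr47Ee in the gene order, and these neighbours, with 1 transcript each, had base means of 871, 0.225 and 29.6 in the authors' deposited table. Cpr47Ef has 2 transcripts.

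Map position 49A, also on 2R, had the largest share in library B among positions with a sum of at least 100 normalized counts. Its 8 genes summed to 55.4 normalized counts in A, 12.2 in C and 94.1 in D, against 2487 in B, so that B held 93.9%. The summed salivary gland genes were also highest in B. Nearly all of the 49A sum was Cpr49Ag, with 29.0 in A, 5.54 in C and 85.5 in D, against 2339 in B. This was the largest change among the 27 by edgeR: -5.93 with an adjusted p of 6.95e-11 in the authors' deposited table. The authors' deposited DESeq2 table gave a smaller value, -2.33 ± 0.631 (SE), with an adjusted p of 0.0119. Library D held most of the counts on the other side, and without D the log2 ratio to B was -7.08, in place of -5.87. Cpr49Ah lies 3 annotated genes away. It had 20.9 in A, 5.54 in C and no read in D, where 3 reads would be 4.28 normalized counts, against 123 in B. The authors' deposited edgeR table called it at -3.65 with an adjusted p of 2.95e-05, while their DESeq2 table gave -0.87 ± 0.522 (SE) with an adjusted p of 0.9999. Its log2 ratio of -3.81 became -5.48 without A and -3.22 without D. Cpr49Ac, under the base mean of 10, had 1 read in A and none in C and D, against 15 reads in B. The authors' deposited edgeR table gave it an adjusted p of 0.0186 and their DESeq2 table one of 0.407.

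At map position 65A on 3L, library B was again the high one, at lower levels. Its 7 genes summed to 18.2 normalized counts in A, 14.4 in C and 12.8 in D, against 213.5 in B. B held 82.4%, and 3 of the 7 genes were at 0. Cpr65Ay had 6.08 in A, 2.22 in C and 2.85 in D, against 124 in B. A, C and D rest on 9, 2 and 2 reads. The authors' deposited edgeR table gave -4.93 with an adjusted p of 9.16e-09, and their DESeq2 table gave -3.48 ± 0.615 (SE) with an adjusted p of 1.59e-06. Cpr65Av had 4.05 in A, 2.22 in C and 1.43 in D, against 82.0 in B. Its authors' deposited edgeR value was -4.83 with an adjusted p of 3.58e-07, and their DESeq2 value was -3.14 ± 0.639 (SE) with an adjusted p of 8.15e-05. The direct neighbour of Cpr65Ay, Cpr65Az, had about equal levels, of 8.10 in A, 9.98 in C and 7.13 in D, against 7.21 in B. Of these adjacent genes, one had 91.8% of its normalized counts in B and the other was even across the libraries. Cpr65Az, at a base mean of 8.10, was the first gene under the limit for description, and Cpr72Ea, at 10.7, the last above it in the authors' deposited table.

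**Figure D3:**
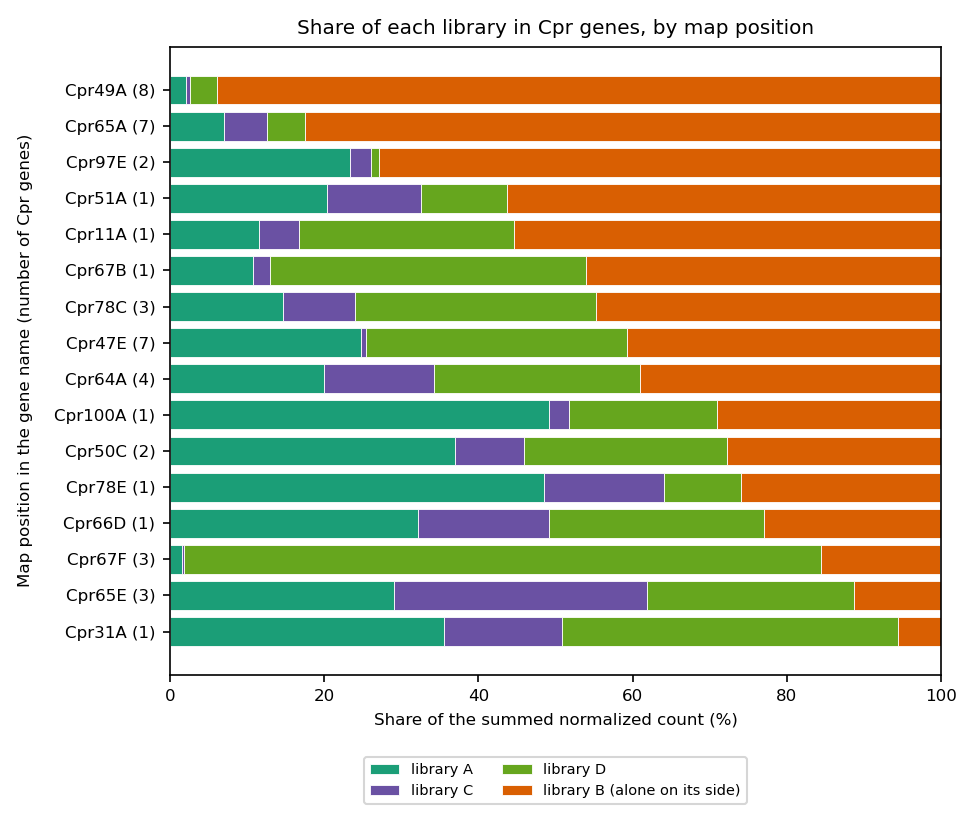
Share of each library in the summed normalized counts of the Cpr genes at each map position, in percent, for the 16 positions whose sum over libraries reached 100 normalized counts; the number of genes is in brackets. Library B holds 93.9% at 49A and 82.4% at 65A, library D holds 82.6% at 67F, and library C holds 0.615% at 47E.

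At 67F on 3L, a single library stood out on the other side of the comparison. Cpr67Fa2 had 17.6 normalized counts in A, 4.43 in C and 1192 in D, against 194 in B. Cpr67Fa1 had 22.3 in A, 1.11 in C and 1076 in D, against 232 in B. Library D held 84.7% and 80.8% of these 2 genes' normalized counts, with B second and above both A and C. The authors' deposited edgeR table gave 1.0 and 0.59, both with an adjusted p of 1. Within A, C and D the highest library exceeded the lowest 269 times in Cpr67Fa2 and 971 times in Cpr67Fa1, where C rests on a single read. These 2 genes are adjacent, near-identical copies, and how reads that fit both were counted is not given in the sources used here. Cpr67Fb, the other gene at this position, had 6 reads in all. TwdlO, a cuticle gene of the Tweedle family, also had most of its reads in D: 9.46 normalized counts in A, none in C and 1846 in D, against 4.50 in B.

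Cpr31A, alone at its position on 2L, was the 1 gene called on the positive side. It had 1004 normalized counts in A, 432 in C and 1227 in D, against 158 in B. Every one of A, C and D was above B, and their own highest and lowest differed 2.84 times. The authors' deposited edgeR table gave 2.47 with an adjusted p of 0.00268, and their DESeq2 table gave 2.03 ± 0.498 (SE) with an adjusted p of 0.00279. Cpr56F, with 25.7 in A, 12.2 in C and 37.1 in D against 2.70 in B, had the highest positive value of the 27, 3.12 in the authors' deposited edgeR table, with an adjusted p of 0.348. B rests on 3 reads there, with an exact 95% Poisson interval of 0.557 to 7.90 normalized counts.

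The last pair of edgeR calls lay on X and 3R. Cpr11A had 152 normalized counts in A, 69.8 in C and 368 in D, against 731 in B. The authors' deposited edgeR table gave -1.93 with an adjusted p of 0.0368, and their DESeq2 table gave -1.48 ± 0.557 (SE) with an adjusted p of 0.245. Without D its log2 ratio to B was -2.72, in place of -1.90. Cpr97Eb had 29.7 in A, 2.22 in C and 1.43 in D, against 88.3 in B. The authors' deposited edgeR table gave -2.85 with an adjusted p of 0.00790 and their DESeq2 table an adjusted p of 0.288. Library A held most of the counts on its side: without A, the log2 ratio of the remaining mean to B was -5.60, in place of -2.99.

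Among genes with no call, several were higher in B than in every other library. Cpr51A had 75.0 normalized counts in A, 44.3 in C and 41.3 in D, against 207 in B, with adjusted p of 0.165 and 0.0929 in the authors' deposited edgeR and DESeq2 tables. Cpr67B had 120 in A, 24.4 in C and 453 in D, against 511 in B, where D was nearly level with B. Cpr78Cc had 87.1 in A, 38.8 in C and 178 in D, against 259 in B. Cpr12A and Cpr78Ca showed the same placing at 30.6 and 29.7 in B. In each, B was the highest library and neither of the authors' deposited tables gave an adjusted p under 0.05.

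Other genes had B within the range of A, C and D. Cpr78E had 503 normalized counts in A, 162 in C and 104 in D, against 268 in B. Cpr66D had 117 in A, 62.1 in C and 101 in D, against 83.8 in B, so its 4 libraries lay close together. Cpr50Cb had 105 in A, 23.3 in C and 75.6 in D, against 79.3 in B. Cpr100A had 102 in A, 5.54 in C and 39.9 in D, against 60.4 in B, so A was the highest and C again far down. Cpr64Ad was close to even, with 12.8 in A, 12.2 in C and 22.8 in D, against 16.2 in B. B was the lowest library in Cpr65Ec, with 28.4 in A, 32.1 in C and 28.5 in D against 10.8 in B. The same held in Cpr5C, with 27.0 in A, 22.2 in C and 24.2 in D against 13.5 in B. Cpr72Ea had 18.9 in A, 6.65 in C and 12.8 in D, against 4.50 in B. None of these passed the threshold in either of the authors' deposited tables.

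The 32 genes above 0 and under a base mean of 10 had between 1 and 34 reads over the 4 libraries, and 6 had a single read. Together they summed to 60.1 normalized counts in A, 58.8 in C and 44.2 in D, against 100 in B, so the steep differences between A, C and D in the higher genes were absent from this sum. B was the highest library in 12 of the 32, and the same share over all genes under a base mean of 10 was not worked out. In the authors' deposited edgeR table, 2 of them were called, both negative (background 0.782%), and in the authors' deposited DESeq2 table none was, with 3 at an unadjusted p under 0.05 and no adjusted p for 25. The calls were Cpr49Ac, given above, and Cpr66Cb, with 2 reads in A, 1 in C and 0 in D, against 18 in B. Cpr66Cb had a value of -3.94 and an adjusted p of 0.0380 in the authors' deposited edgeR table. The 11 genes at 0 were Cpr11B, Cpr47Ef, Cpr49Aa, Cpr57A, Cpr62Ba, Cpr62Bb, Cpr65Aw, Cpr65Ax1, Cpr65Ax2, Cpr76Bc and Cpr76Bd. Of these 11, 9 have several transcripts in the tables, the others being Cpr49Aa and Cpr65Ax1.

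Cuticle proteins of the same consensus that carry other names, such as the larval Lcp and the Ccp84A genes, also varied widely. The list of 28 summed to 2191 normalized counts in A, 274 in C and 2749 in D, against 9881 in B. As with the Cpr genes, C was lowest and B highest. Lcp65Ac made up most of the value in B, with 798 in A, 6.65 in C and 101 in D, against 8162 in B, and an adjusted p of 1 in the authors' deposited edgeR table. Among the 15 at a base mean of 10 or more, the authors' deposited edgeR table called Lcp2 at -5.94 with an adjusted p of 2.82e-08. Lcp2 had 2 reads in A, 0 in C and 1 in D, against 73 in B, and reached a base mean of 10 only through B. The same table called Ccp84Ab at 3.24, with an adjusted p of 0.0497 in the authors' deposited edgeR table and 0.0502 in their DESeq2 table. Ccp84Ab had 126 in A, 27.7 in C and 52.8 in D, against 7.21 in B.

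Other lists cover further components of the cuticle, and their calls stand beside the 3.2% negative and 0.394% positive of all genes given above. The Tweedle genes, a further family of cuticle proteins, summed to 326 normalized counts in A, 201 in C and 2260 in D, against 303 in B. None of the 8 at a base mean of 10 or more was called in the authors' deposited edgeR or DESeq2 table, with 2 and 1 at an unadjusted p under 0.05. Twdlbeta had 167 in A, 66.5 in C and 85.5 in D, against 158 in B. None of 6 peritrophin-like chitin-binding genes was called in the authors' deposited edgeR or DESeq2 table either, with 1 and 0 at an unadjusted p under 0.05. The highest, obst-B, had 1129 in A, 506 in C and 465 in D, against 1418 in B. Of 9 genes for chitin synthesis and turnover, 1 was negative in the authors' deposited edgeR table, Idgf5, a chitinase-like growth factor, at -4.24 with an adjusted p of 5.54e-06. Idgf5 had 4.73 normalized counts in A, 3.33 in C and 5.70 in D, against 87.4 in B. It too reached a base mean of 10 only through B. The gene mmy, which makes the precursor of chitin, lay just under the base mean of 10 with 4 reads in A, 1 in C and 1 in D, against 34 in B. Its value was -3.95 with an adjusted p of 0.00314 in the authors' deposited edgeR table and 0.0988 in their DESeq2 table. The 4 sclerotization and pigment genes, of which yellow (y) and ebony (e) were the highest, had a median of 0.90 and no call in the authors' deposited edgeR table, with 2 at an unadjusted p under 0.05, and no call in their DESeq2 table, with 1. The gene y, needed for black pigment, had 2243 in A, 3675 in C and 1182 in D, against 1215 in B. Regulators of the ecdysone response, 12 in number, summed to 913 in A, 892 in C and 1225 in D, against 1031 in B. None of the 6 at a base mean of 10 or more was called in the authors' deposited edgeR or DESeq2 table, with 0 and 1 at an unadjusted p under 0.05.

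The summed genes of epidermal and tracheal cells, which secrete cuticle, varied less across the libraries than the Cpr sums. Of 13 found in the tables, sha, nyo, neo and trh were listed at 0, and all 4 have several transcripts in the tables. The 13 summed to 702 normalized counts in A, 520 in C and 583 in D, against 795 in B, and none of the 5 at a base mean of 10 or more was called in the authors' deposited edgeR or DESeq2 table, with 1 and 0 at an unadjusted p under 0.05. Library C was the lowest here too, but at 520 against 702 in A, where its Cpr sum was 0.206 of that in A. Most of each sum was Gasp and grh, so the sums say little about the other genes of the list. Gasp had 457 in A, 299 in C and 264 in D, against 486.5 in B. For grh the values were 166 in A, 117.5 in C and 257 in D, against 129 in B. Whether these genes mark epidermis or trachea in this tissue was not tested. The sums of these markers and the Cpr sums come from the same 4 libraries, and their relation was not tested.

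Fat body markers fell into a resolved and an unresolved group. The 4 resolved of 6 summed to 1.35 normalized counts in A, 2.22 in C and 0 in D, against 2.70 in B, with Fbp1 at 0. The unresolved ones were the larval serum protein genes Lsp1alpha and Lsp1gamma, at base means of 5464 and 13649 in the authors' deposited table. Their log2 fold changes were -6.51 and -6.73 in the authors' deposited edgeR table, each with an adjusted p of 1, and Lsp1alpha had an adjusted p of 0.0386 in their DESeq2 table. The 6 resolved of 8 hemocyte markers summed to 17.6 in A, 2.22 in C and 18.5 in D, against 12.6 in B, with Hml, He and vkg at 0. The unresolved PPO1 and PPO2, which encode prophenoloxidases of crystal cells, had base means of 7570 and 12834 in the authors' deposited table. PPO2 was called at -4.96 with an adjusted p of 1.08e-49 in the authors' deposited edgeR table, and PPO1 had -6.56 with an adjusted p of 1. These abundant genes had negative values, the sign of the called Cpr genes other than Cpr31A. The resolved fat body and hemocyte markers, 4 and 6 in number, all have several transcripts in the tables, as do Syn and Gli, which are listed at 0 in this nervous tissue. Glial markers, 5 of 9 resolved, summed to 336 in A, 604 in C and 258 in D, against 470 in B. The 4 unresolved, with the glial regulator repo among them, had log2 fold changes between -0.50 and 0.33 in the authors' deposited edgeR table. None of the 6 glial genes at a base mean of 10 or more was called in the authors' deposited edgeR or DESeq2 table, with 0 at an unadjusted p under 0.05 in both. None of the 9 such neuronal genes was called either, with 1 at an unadjusted p under 0.05 in each of the authors' deposited tables.

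**Figure D4:**
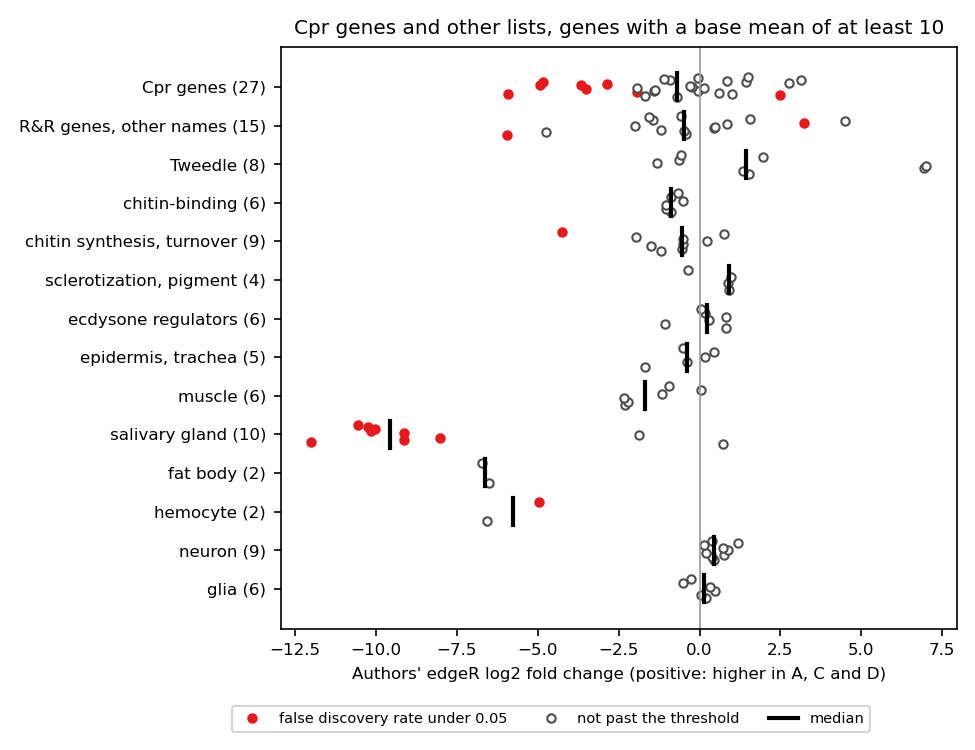
The authors' edgeR log2 fold change, A, C and D over B, of the Cpr genes and of each further list, for genes at a base mean of 10 or more; 1 point is 1 gene, filled red at a false discovery rate under 0.05, and the black bar is the list's median. The Cpr median is -0.70 with 8 of 27 called, and 8 of 10 salivary gland genes are called on the negative side. Some called genes in both lists reach a base mean of 10 only through B.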

How the data were processed

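RNA sequencing of larval central nervous systems was deposited as 2 tables of the authors' own comparison, and no column of per-sample values was used (0 were left out). The base mean of the deposited DESeq2 table is a signal, per the file headers: counts divided by size factors and averaged over libraries. Both deposited tables give a log2 fold change, and the authors' edgeR table an average log2 CPM. The deposited Wald and F statistics are each a test score, and the deposited p-values are unadjusted and adjusted. The submitters' processing notes name HISAT2, featureCounts, DESeq2, edgeR and dm3, with no versions or settings. How reads shared between copies, overlapping genes or strands were counted is not given in the sources used here. No Cpr gene of the 27 described overlaps an exon of another gene in BDGP6.54, while 5 of the 70 do. Coordinates are not given, because that annotation is of another build than dm3. It gave exon lengths for all 70 genes, and a RefSeq table of Release 6 plus ISO1 MT gave names and gene order (33958 of 34115 transcripts matched).

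Reads per library were recovered with Python 3.11.15, numpy 2.4.6 and scipy 1.17.1. Base means were written as whole-number sums of 4 steps, each 1 read in 1 library, within 1.5 half-units of the last deposited digit. The average log2 CPM was then matched by the formula behind the authors' edgeR values (prior count 2, a fitted dispersion of 0.1553) within 1e-09, which left 1 set of reads for 99.88% of transcripts with base means above 0 and up to 2700. The decoder was tested on simulated data with levels drawn from base means well under 2700. These lay below the base means of Cpr47Eg, Cpr47Ec, Cpr31A and Cpr49Ag, so the test was not made for such levels. The libraries held between 2040454 and 4429154 recovered reads, with the most abundant transcripts outside this range of base means, and counting floors are 3 reads. The libraries carry no labels, and nothing says that they came from separate cultures, so the authors' p-values measure only the spread between libraries. No differential test was rerun. The planned edgeR quasi-likelihood test on counts per labelled sample could not be made, and the authors' edgeR values stand in its place, with an adjusted p under 0.05 as a call.

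The Cpr genes and the other lists were chosen with earlier results of these data known. Every Cpr gene with a base mean of at least 10 is described, then any other called one. Of each other list, at most 4 called genes and 3 of high base mean could be named, and some of these were left out.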

Additional observations from a re-analysis of the deposited data

How the results depend on the processing

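Over 128 alternative values, 107 kept their direction and call, 16 moved, 5 lost a call and none reversed. The count of called Cpr genes was 8 in the authors' deposited edgeR table and 5 in their DESeq2 table, or by a call in both, with 4 of these negative. It was also 5, with 4 negative, among genes with at least 10 normalized counts on both sides, a limit chosen after seeing the data. These were not the same 5 genes. Cpr31A, Cpr49Ag and Cpr47Eb were in both sets, Cpr65Ay and Cpr65Av only in the DESeq2 set, and Cpr11A and Cpr97Eb only in the set with 10 on both sides. The DESeq2 adjusted p-values of the lost calls are 0.245 (Cpr11A), 0.9999 (Cpr49Ah), 0.288 (Cpr97Eb), 0.454 (Cpr66Cb) and 0.407 (Cpr49Ac); the cause was not tested. The median edgeR log2 fold change, -0.70 in the main setting, was -1.40 when the minimum base mean was 30 and -0.29 when it was 5. The summed ratio of A, C and D to B was 0.50, and 0.488 without A, 0.696 without C and 0.316 without D. Alternatives chosen after seeing the data gave 0.489 with edgeR's effective library sizes and 0.456 without Cpr47Eg. Of called genes, the log2 ratio moved to -7.08 for Cpr49Ag without D, and to -5.48 for Cpr49Ah and -5.60 for Cpr97Eb without A. Under a narrower decoding tolerance only 1 gene had a set of reads, so no sum is given. A tolerance 10 times wider left 1 set for 58 genes and a ratio of 0.456, the same as without Cpr47Eg. The reads given for Cpr47Eg thus rest on the tolerance used. No paired analysis was possible because the tables hold no values for labelled samples, and for the same reason other normalizations and refits without a labelled replicate were not run. Genes under a base mean of 10 had at most 34 reads in all, and 17 of the 70 Cpr genes, all of them under 10, have several transcripts in the tables.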
